A study of Arabidopsis thaliana with 16 samples.

Results

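The genes described here are the cytochrome P450 genes that the array series measured in seedling roots of Arabidopsis thaliana under low oxygen. The family was chosen with earlier results of these data known, and its members by symbol alone, with no measured value. A probe set had to be paired with 1 gene only. That gene had to be named CYP followed by a plant P450 family number. This gave 24 genes, each with 1 probe set, among the 13356 genes that were paired alone with a probe set. The reference gene table holds 237 genes with such a symbol, and the others were not analysed here. The set is mostly a sample of the CYP71B subfamily, with 19 genes. The other 5 were CYP718, CYP84A4, CYP79A2, CYP78A9 and CYP51G2. CYP71B27 and CYP51G2 are annotated as transcribed pseudogenes, and CYP71B30P carries the final P by which P450 pseudogenes are named, although the same annotation lists it as protein-coding. A probe set named CYP71 was left out because that symbol stands for a cyclophilin, and 2 probe sets shared by several genes were left out as well.

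Cytochrome P450 enzymes are heme proteins, mostly anchored in the endoplasmic reticulum, that split molecular oxygen and insert 1 of its atoms into a substrate, using electrons handed over by a P450 reductase. Oxygen is thus a substrate of the reaction itself. In plants the family is large, and its members make or break down phenylpropanoids, sterols, hormones, glucosinolates, camalexin and terpenoids. CYP71B genes often lie side by side on the chromosome.

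All 4 groups were roots of 14-d-old seedlings of ecotype Columbia, held in the dark, with 4 arrays each. Wild type served as the control at both oxygen levels, and the groups named HRE1-RNAi came from a knock-down line in which RNA interference targets HRE1 (AtERF73), an ethylene response factor gene. Hypoxia was 6 h at 3% oxygen, and the normoxia groups were likewise held for 6 h. The oxygen level of normoxia and the promoter of the RNAi construct are not given in the labels. The titles call the line HRE1-RNAi20, whereas most descriptions of its samples name RNAi21 to RNAi24, so it was not settled whether the arrays came from 1 line or several. No probe set was paired with HRE1, and its level was not analysed here. By their titles the 4 arrays of each group are biological replicates, and they are numbered below as there. The p-values thus rest on the spread among these samples.

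The deposited value is an intensity on a linear scale for each probe set and array, with a nearly common trimmed mean (498.5 to 499.8 over the arrays), and the number of arrays limits the precision. CML38 and PDC2, known hypoxia genes used as a check of the treatment, rose by 5.26 ± 0.23 and 2.19 ± 0.24 log2 in wild type and by 6.12 and 2.01 in HRE1-RNAi. Array 4 of HRE1-RNAi normoxia and array 4 of HRE1-RNAi hypoxia stood apart: they had the lowest correlations with their own groups (0.965 and 0.962) and the largest difference between 3′ and 5′ control probe sets (1.32 and 1.35 log2). The 25S rRNA control signal moved with the treatment, from 576.5 to 4253 in wild type normoxia to 13790 to 18560 in wild type hypoxia, and from 273.1 to 3262 in HRE1-RNAi normoxia to 1776 to 20700 in HRE1-RNAi hypoxia. Of the root markers, 3 of 10 were measured (EXPA7, EXPA18 and XTH26, all root hair genes), with summed intensities of 1148 to 1687 in normoxia and 351.4 to 574.7 in hypoxia for wild type, and of 1567 to 1866 and 362.7 to 992.5 for HRE1-RNAi. All 3 fell in hypoxia in both lines. Of the shoot markers, 3 of 8 were measured and none was at 0. Their sums were 2188 to 2402, 1148 to 1250, 2085 to 2498 and 1130 to 1653 in the same order. LHCB4.1 and LHCB4.2 fell in both lines. RCA, the other one, was called in neither line (limma adjusted p = 0.681 and adjusted p = 0.564). It changed by -0.14 ± 0.17 log2 in wild type and -0.18 ± 0.17 in HRE1-RNAi. The part that these measures play in the P450 values below was not tested. In whole roots, fewer cells of a type and less RNA per cell cannot be told apart.

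Changes are log2 differences between group means of log2(intensity + 16), given with their standard error, with n = 4 arrays per group. A gene was called when its p from limma, adjusted by the Benjamini-Hochberg method over all 22746 probe sets, was below 0.05, and tests were two-sided. Levels of different probe sets are not compared as amounts, because probes differ in how brightly they bind.

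The wild type comparison of hypoxia with normoxia addresses which P450 transcripts of the root respond to oxygen shortage. Of the 24, 3 P450 genes rose (CYP71B29, CYP71B6 and CYP71B23) and 5 fell (CYP718, CYP71B28, CYP71B34, CYP71B26 and CYP84A4). These 8 were 33.3% of the 24 genes, beside 17.8% called among all probe sets. By direction, 12.5% of the P450 genes were higher, beside 7.2% of all probe sets, and 20.8% were lower, beside 10.6%. Of the called genes 4 changed at least 2-fold, 16.7% of the set, beside 7.18% of all probe sets. The arrays of the groups did not overlap for 3 genes that were higher and 4 that were lower, 12.5% and 16.7%, beside 9.07% and 13% of all probe sets. The median change over the 24 genes was -0.23, beside -0.06 over all probe sets. The balance of directions depends on how arrays are scaled: 40.5% of all calls were higher on the deposited scale and 53.9% after median centring of the arrays, where 3 P450 genes were higher and 4 lower.

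In HRE1-RNAi, the same comparison called the same 8 genes in the same directions, 3 higher and 5 lower. The share was again 33.3% of the P450 genes, beside 18.2% called among all probe sets, 7.51% higher and 10.7% lower. A call of at least 2-fold was reached by 4 genes, beside 7.64% of all probe sets, and groups without overlap were found for 3 higher and 5 lower genes, beside 7.93% and 11.5%. Being called in the same direction in both lines held for 33.3% of the P450 genes and for 13.2% of all probe sets. The median change was 0.07, beside -0.06 over all probe sets. With arrays centred on their medians, the share of higher calls among all probe sets went from 41.3% to 55.6%, the median change of all probe sets moved from -0.06 to 0.05, and the P450 genes split into 3 higher and 3 lower. The group means of the 2 comparisons have no arrays in common. Their spread came from a joint fit over all 16 arrays, so the calls in the 2 lines are not independent. Across the 24 genes the changes in the 2 lines had a Pearson correlation of 0.845, and 17 genes had the same sign in both, which describes these probe sets and carries no test.

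Called shares were also taken by brightness, whose part in the calls was not tested. Among probe sets left after removing the dimmest 40%, 25.7% were called in wild type and 26.1% in HRE1-RNAi. Only 9 of the 24 P450 genes were above that filter, and all 8 called genes were among them. Since a gene can pass through the condition in which it is high, this is no measure of how many P450 genes respond.

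**Figure D1:**
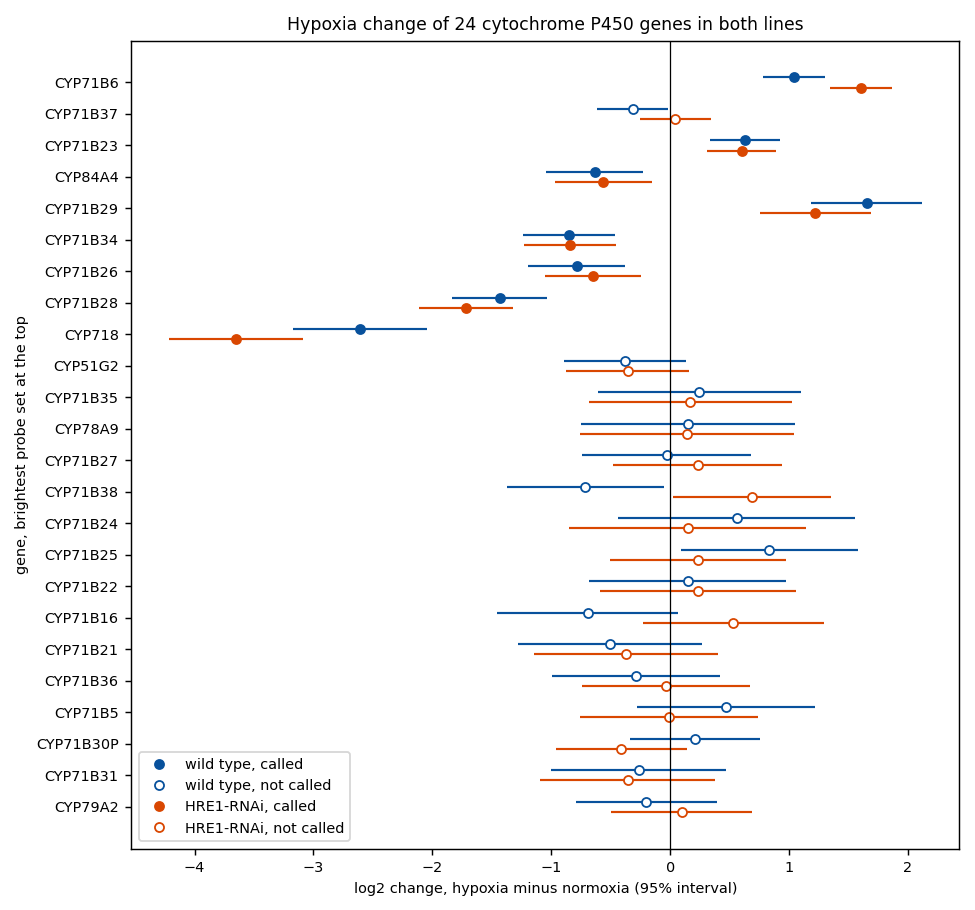
Log2 change, hypoxia minus normoxia, of all 24 P450 genes (x axis, with 95% intervals) in wild type (blue) and HRE1-RNAi (orange), ordered from the brightest probe set at the top to the dimmest at the bottom. Filled points passed the test, and all of these lie among the 9 brightest probe sets, from CYP71B6 to CYP718. The other probe set of those 9, CYP71B37, did not pass in either line.

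CYP71B6, an enzyme that converts indole-3-acetonitrile to indole-3-carbaldehyde and indole-3-carboxylic acid, had the brightest of the 24 probe sets. Its intensity was 1375, 1249.1, 1132.8 and 1222.9 on arrays 1 to 4 of wild type normoxia and 2869.1, 2608.5, 2643.5 and 2204.1 in wild type hypoxia. In HRE1-RNAi it was 1255.8, 1231.5, 1179.7 and 1231.3 in normoxia and 3588.4, 3103.5, 3947.6 and 4536.7 in hypoxia. Every hypoxia array lay above every normoxia array, and the normoxia arrays of the lines were intermingled in a narrow band. The rise was 1.04 ± 0.13 log2 in wild type (limma adjusted p = 1.47e-06) and 1.61 ± 0.13 in HRE1-RNAi (limma adjusted p = 1.67e-09).

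CYP71B29 had the largest rise of the 24 measured genes in wild type. It went from 119.9, 97.2, 85.9 and 89.7 in wild type normoxia to 325.1, 345.8, 413 and 288.7 in wild type hypoxia. In HRE1-RNAi it went from 126.5, 110.2, 105.3 and 175.2 to 194.2, 331.1, 296.2 and 525.1. The groups did not overlap in either line, but the HRE1-RNAi arrays were more scattered, with array 4 highest in both conditions. The change was 1.65 ± 0.22 log2 in wild type (limma adjusted p = 7.58e-06) and 1.22 ± 0.22 in HRE1-RNAi (limma adjusted p = 0.000287).

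CYP71B23 rose less. Its values were 436.1, 348.3, 389.9 and 404.2 in wild type normoxia and 649.6, 715.2, 573.3 and 544.8 in wild type hypoxia. In HRE1-RNAi they were 435.3, 446, 426.4 and 639.6 in normoxia and 728.6, 729, 711.2 and 775.3 in hypoxia. Hypoxia arrays were higher throughout in each line, although array 4 of HRE1-RNAi normoxia came close to the hypoxia values. The change was 0.63 ± 0.14 log2 in wild type (limma adjusted p = 0.00223) and 0.60 ± 0.14 in HRE1-RNAi (limma adjusted p = 0.00325), so it stayed under a 2-fold rise on this scale in both.

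CYP718 had the largest fall of the set. Its intensity was 330.8, 403.2, 318.7 and 386.2 in wild type normoxia and 90.6, 46.2, 45.1 and 18.9 in wild type hypoxia. In HRE1-RNAi it was 405.9, 397.4, 519.9 and 364.8 in normoxia and 21.8, 36.6, 8.4 and 13.6 in hypoxia. The groups were far apart, and all 4 HRE1-RNAi hypoxia arrays lay at the dim end of its range. The change was -2.61 ± 0.27 log2 in wild type (limma adjusted p = 1.83e-07) and -3.65 ± 0.27 in HRE1-RNAi (limma adjusted p = 8.1e-10). Because the hypoxia values are near the pseudocount, the sizes depend on it: -3.01 and -4.50 with a pseudocount of 1, and -1.92 and -2.53 with 64.

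CYP71B28 fell 2.70-fold in wild type and 3.28-fold in HRE1-RNAi on the scale with the pseudocount. Its intensity was 240.1, 259.6, 249 and 176.1 in wild type normoxia and 86.1, 56.5, 95.2 and 65.6 in wild type hypoxia. In HRE1-RNAi it was 263.7, 269.7, 247.6 and 328.1 in normoxia and 64.4, 94.9, 60 and 76.3 in hypoxia. No hypoxia array reached the lowest normoxia array of its line. The change was -1.44 ± 0.19 log2 in wild type (limma adjusted p = 5.79e-06) and -1.71 ± 0.19 in HRE1-RNAi (limma adjusted p = 4.37e-07).

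CYP71B34 and CYP71B26 fell by smaller amounts. CYP71B34 went from 222.5, 228.9, 195.2 and 216.6 to 127.2, 150.3, 89.1 and 92.9 in wild type, and from 229.1, 267.5, 191.2 and 213.2 to 123.7, 138.5, 84.2 and 131.9 in HRE1-RNAi. CYP71B26 went from 256.5, 226.2, 255.6 and 148.8 to 116, 104.8, 128.6 and 128.8 in wild type, and from 188.9, 203.2, 150.9 and 193.7 to 106.2, 141.6, 126.3 and 78.3 in HRE1-RNAi. For both genes the groups did not overlap, but array 4 of wild type normoxia and array 3 of HRE1-RNAi normoxia came close to the hypoxia arrays for CYP71B26. CYP71B34 changed by -0.85 ± 0.19 and -0.84 ± 0.19 log2 in wild type and HRE1-RNAi (limma adjusted p = 0.00193 and adjusted p = 0.00199). CYP71B26 changed by -0.79 ± 0.20 and -0.65 ± 0.20 (limma adjusted p = 0.00565 and adjusted p = 0.0214). The HRE1-RNAi call of CYP71B26 was lost without array 1 or 2 of normoxia (limma adjusted p = 0.0526 and adjusted p = 0.0653), without array 1 or 4 of hypoxia (0.0525 and 0.0752), without both arrays 4 (0.12), with quantile normalization (0.0723) and with arrays centred on their medians (0.0688).

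CYP84A4, which takes part in the synthesis of arabidopyrones, a class of pyrone metabolites, was the weakest of the 8. It went from 283.1, 331.1, 309.8 and 339.3 to 186, 130.9, 305.8 and 199.6 in wild type, and from 373.9, 350.4, 330.2 and 373.6 to 307.5, 203.7, 178.9 and 275.3 in HRE1-RNAi. Array 3 of wild type hypoxia lay within the normoxia range, so the wild type groups overlapped, while the HRE1-RNAi groups did not. The change was -0.64 ± 0.20 log2 in wild type (limma adjusted p = 0.0261) and -0.56 ± 0.20 in HRE1-RNAi (limma adjusted p = 0.0497). The wild type call was lost without array 2, 3 or 4 of wild type normoxia (limma adjusted p = 0.0657, 0.0524 and 0.065), without array 1 or 2 of wild type hypoxia (0.0671 and 0.115) and with arrays centred on their medians (0.0528). The HRE1-RNAi call was lost under 21 of 28 alternatives. Among them were leaving out any array of wild type normoxia (limma adjusted p = 0.0581 to 0.0609) or of HRE1-RNAi normoxia (0.0607 to 0.109), array 1 or 4 of wild type hypoxia (0.0604 and 0.0573), array 2 or 3 of HRE1-RNAi hypoxia (0.135 and 0.181), and both HRE1-RNAi arrays numbered 4 (0.0582).

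**Figure D2:**
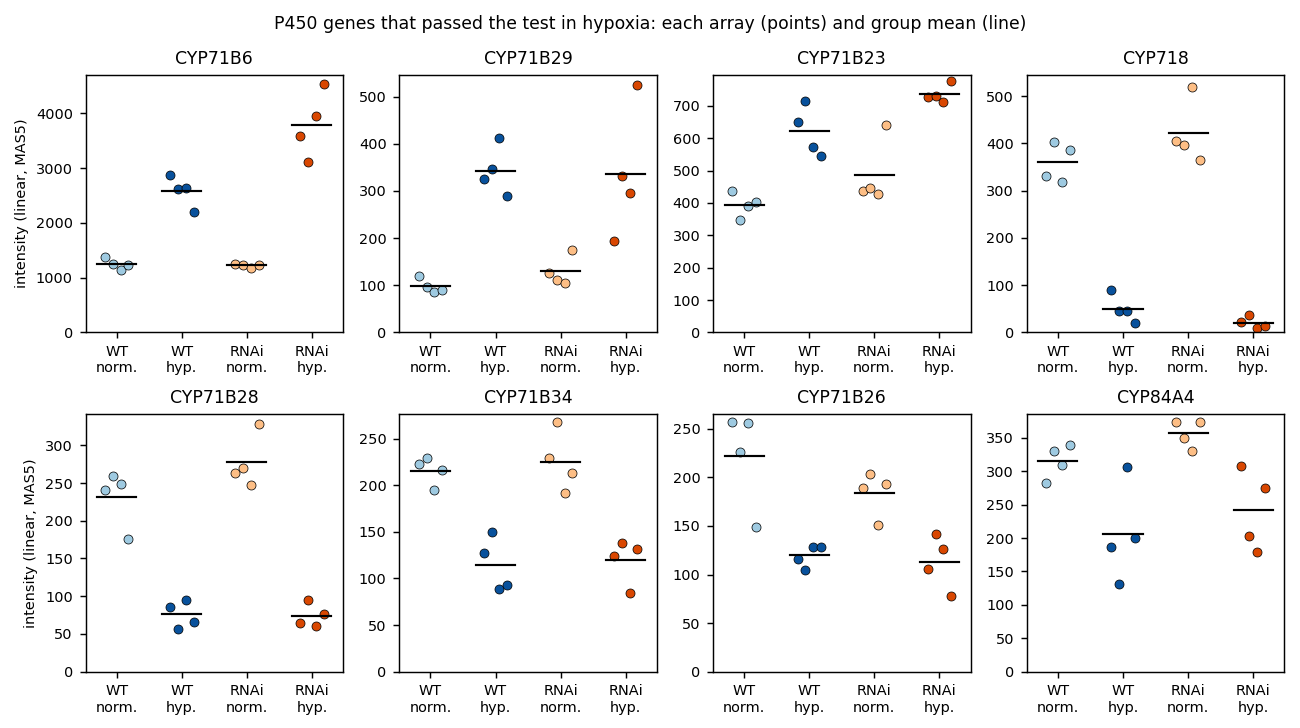
Intensity (linear, y axis from 0, a scale of its own for each gene) of the 8 called P450 genes on every array, with arrays as points, group means as lines, and wild type (blue) and HRE1-RNAi (orange) in normoxia (light) and hypoxia (dark). CYP71B6 in HRE1-RNAi hypoxia (3103.5 to 4536.7) lies above wild type hypoxia (2204.1 to 2869.1), and CYP84A4 is the gene in which 1 wild type hypoxia array (305.8) lies among the normoxia arrays.

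Array 4 of HRE1-RNAi hypoxia had a 25S rRNA signal of 1776, within the range of the normoxia arrays. All 8 called genes lay on the hypoxia side on it. They were called with this array in the hypoxia group, so this is no separate check, and the part of the rRNA signal was not tested. The array gave, for example, 4536.7 for CYP71B6, 525.1 for CYP71B29, 13.6 for CYP718 and 76.3 for CYP71B28. Without both HRE1-RNAi arrays numbered 4, the 3 rises were still called in each line, and the falls called numbered 5 in wild type and 3 in HRE1-RNAi.

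The other 16 P450 genes did not pass in either line. CYP71B37 is the brightest of them, at 737.5, 846.9, 952.3 and 884.8 in normoxia and 652.1, 583.4, 770 and 736.3 in hypoxia for wild type. For HRE1-RNAi it was 572.1, 901.3, 803 and 726.9 in normoxia and 803.7, 739.8, 669 and 855.1 in hypoxia. The groups overlapped in both lines. Its change was -0.32 ± 0.14 log2 in wild type (95% interval -0.62 to -0.01, limma adjusted p = 0.154) and 0.04 ± 0.14 in HRE1-RNAi (-0.26 to 0.34, limma adjusted p = 0.898). At this brightness the intervals do not reach a 2-fold change. CYP51G2, the pseudogene copy of the sterol 14-demethylase gene CYP51G1, averaged 106 in normoxia and 78.7 in hypoxia for wild type, and 86.7 and 65.8 for HRE1-RNAi. Its changes were -0.38 ± 0.25 and -0.36 ± 0.25 log2 (limma adjusted p = 0.357 and adjusted p = 0.391).

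The remaining 14 had a mean below 50 in every group, and many of their arrays lay under the pseudocount, where the log2 scale compresses any difference. CYP79A2, which turns phenylalanine into phenylacetaldoxime for benzylglucosinolate, was the dimmest of the 24, between 1.2 and 27.3 over the 16 arrays. CYP71B31, an oxidase of linalool in flowers, lay between 1 and 51.7. CYP78A9, known for its effect on fruit and seed size, lay between 8 and 79.

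CYP71B27, annotated as a transcribed pseudogene, and CYP71B30P lay between 4.9 and 54.5 and between 1.3 and 19.9. CYP71B5 lay between 0.9 and 29.7, CYP71B16 between 1 and 50.4, CYP71B21 between 1.2 and 35.9, and CYP71B22 between 3 and 58.4. CYP71B24 lay between 1.8 and 57.5, CYP71B25 between 1.6 and 40.9, CYP71B35 between 6.6 and 88.2, CYP71B36 between 1.1 and 28.9, and CYP71B38 between 6.1 and 64.2. In each of these at least 1 group spread over most of its range. The mean within-group SD was 0.188 to 0.748 log2 among the 16 genes not called (median 0.472) and 0.135 to 0.377 among the 8 called genes (median 0.237). Changes of the 16 ranged from -0.71 to 0.83 log2 in wild type and from -0.41 to 0.69 in HRE1-RNAi. CYP71B24 had the largest mean SD of the set. Its wild type interval ran from -0.44 to 1.55, so at this spread even a 2-fold rise could not be told from no change. Some of the other dim genes had narrower intervals that do not reach a 2-fold change on this compressed scale.

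**Figure D3:**
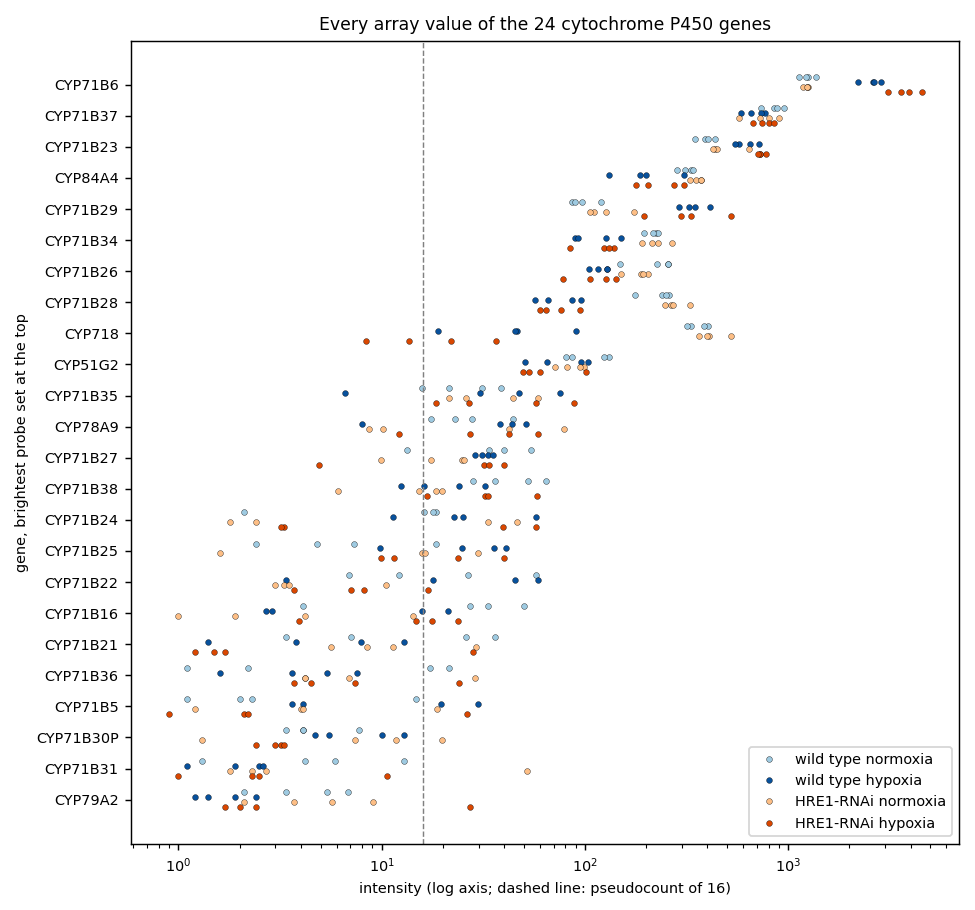
Intensity of the 24 P450 genes on each of the 16 arrays (x axis, log scale), 1 row per gene with the brightest probe set at the top, arrays coloured by group. The dashed line is the pseudocount of 16: the dimmest genes, such as CYP79A2 and CYP71B31, lie mostly to its left, and CYP718 lies further left in hypoxia, with 2 HRE1-RNAi arrays (8.4 and 13.6) left of the line.

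Position on the chromosome was looked up for all 24 genes, since the choice of genes did not use it. In the TAIR10.1 annotation 17 of them lie in 3 runs, and 7 lie alone. In a run, neighbouring members are at most 10 positions apart in the order of annotated genes. On chromosome 1 the run from CYP71B27 to CYP71B29 holds 3 members in a stretch of 5 annotated genes, 4 of which have P450 symbols. A longer run on chromosome 3, from CYP71B16 to CYP71B37, holds 11 members in 25 annotated genes, 18 with P450 symbols. The third run, also on chromosome 3, goes from CYP71B5 to CYP71B31 with 3 members in 5 annotated genes.

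CYP71B28 and CYP71B29 lie next to each other with 0 annotated genes between them, and they moved in opposite directions in both lines. The 95% intervals were -1.83 to -1.04 against 1.19 to 2.12 log2 in wild type, and -2.11 to -1.32 against 0.76 to 1.69 in HRE1-RNAi. CYP71B27, the pseudogene at the other end of this run, changed by -0.03 ± 0.34 and 0.23 ± 0.34.

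In the long run on chromosome 3, 1 gene rose (CYP71B23) and 2 fell (CYP71B26 and CYP71B34) in both lines. CYP71B26 and CYP71B34 are separated by 1 annotated gene, and their changes differed by less than their standard errors in wild type. The other 8 members of this run were not called, and all of them except CYP71B37 were dim. Among the dim ones was CYP71B22, which directly precedes CYP71B23 and changed by 0.15 ± 0.40 and 0.23 ± 0.40 log2. None of the 3 genes in the CYP71B5 run was called, and all were dim. CYP71B6, CYP718 and CYP84A4, the remaining called genes, lie alone. Whether probes of 1 CYP71B gene also bind RNA of a related copy was not tested.

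**Figure D4:**
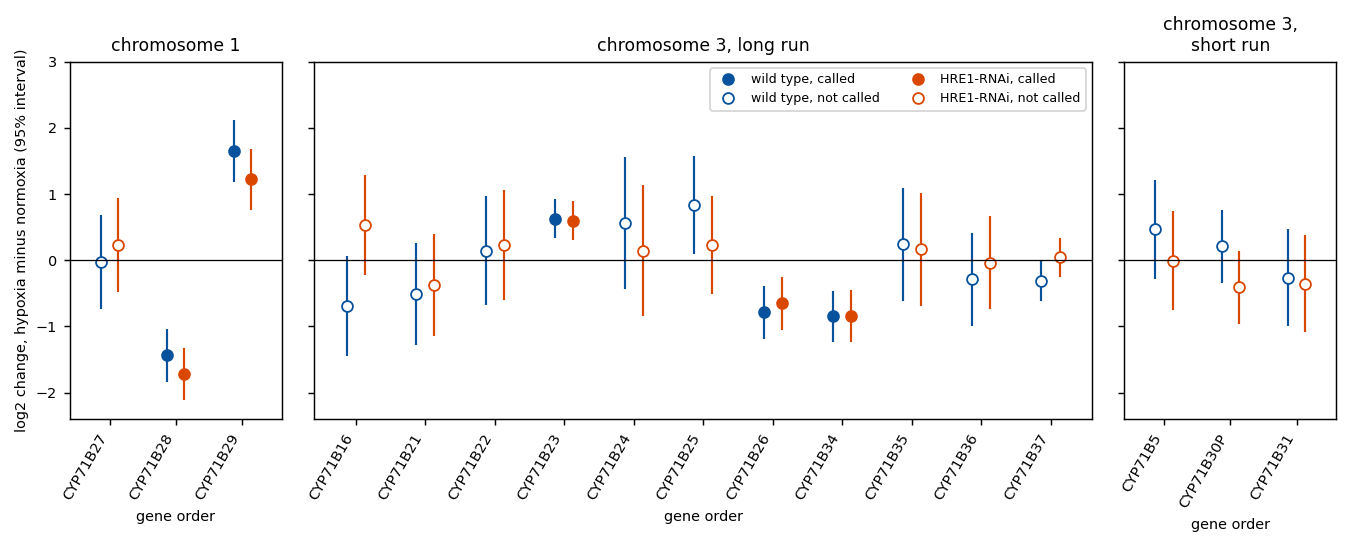
Log2 change, hypoxia minus normoxia, with 95% intervals (y axis), of the 17 P450 genes that lie in runs, in gene order along each run (x axis, order only, not to distance), in wild type (blue) and HRE1-RNAi (orange). Filled points passed the test. In the chromosome 1 run CYP71B28 lies below 0 and its neighbour CYP71B29 above 0 in both lines.

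HRE1-RNAi against wild type asks what targeting HRE1 changes at each oxygen level. No P450 gene was called in normoxia, in hypoxia or in the difference between the hypoxia responses of the lines (limma, 0 of 24 each). The background was nearly as empty, with 0.0264%, 0.022% and 0.0176% of all probe sets called. At an unadjusted p below 0.05 there were 3, 2 and 4 P450 genes, or 12.5%, 8.33% and 16.7%, beside 4.34%, 4.55% and 3.39% of all probe sets. Groups without overlap were rare in both. In normoxia 0 P450 genes were higher and 1 was lower (CYP71B38, 4.17% of the 24), beside 1.08% and 1.96% of all probe sets. In hypoxia 1 was higher (CYP71B6) and 1 lower (CYP71B30P), 4.17% each, beside 1.26% and 1.31%. All arrays of CYP71B30P in these hypoxia groups lay under the pseudocount. They read 4.7 to 12.8 in wild type and 2.4 to 3.3 in HRE1-RNAi.

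The lowest adjusted p of any P450 gene between the lines was that of CYP71B6 in hypoxia. HRE1-RNAi hypoxia (mean 3794 ± 604, SD, n = 4) lay above wild type hypoxia (mean 2581 ± 277) by 0.55 ± 0.13 log2, with all 4 arrays higher than any wild type array, yet this did not pass (limma adjusted p = 0.469, and 0.224 at the lowest over the alternatives). In normoxia the lines differed by -0.02 ± 0.13 (limma adjusted p = 1). The rise in HRE1-RNAi exceeded that in wild type by 0.57 ± 0.18 log2 (95% interval 0.20 to 0.93, limma adjusted p = 1). Without both HRE1-RNAi arrays numbered 4, the difference in hypoxia was 0.46 (limma adjusted p = 0.243).

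For CYP718 the difference between HRE1-RNAi and wild type in hypoxia was -0.82 ± 0.27 log2, which did not pass (limma adjusted p = 0.979), and the arrays of these groups overlapped. Its fall differed between the lines by -1.04 ± 0.38 log2 (95% interval -1.84 to -0.24, limma adjusted p = 1). The sizes depend on the pseudocount: with 1 and 64 the difference of responses was -1.49 and -0.61, and the difference in hypoxia was -1.27 and -0.42, none of them called.

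CYP71B38 and CYP71B16 were the other P450 genes with an unadjusted p below 0.05 for the difference of responses, and both are dim. CYP71B38 read 52.7, 64.2, 28.2 and 36 in normoxia and 12.5, 16.1, 23.9 and 32.1 in hypoxia for wild type. For HRE1-RNAi it read 18.5, 6.1, 15.3 and 19.9 in normoxia and 32.1, 58, 16.7 and 33.2 in hypoxia. Its HRE1-RNAi normoxia arrays lay below all wild type normoxia arrays, a difference of -0.97 ± 0.32 log2 (limma adjusted p = 0.904). The hypoxia change was -0.71 ± 0.32 in wild type and 0.69 ± 0.32 in HRE1-RNAi, neither called, and the difference was 1.40 ± 0.45 (95% interval 0.46 to 2.34, limma adjusted p = 1). At such low intensities the pseudocount sets the size of this difference, which was 2.24 with 1 and 0.67 with 64. CYP71B16 had a mean of 28.8 in normoxia and 10.6 in hypoxia for wild type, and of 5.35 and 15.0 for HRE1-RNAi, with a difference of responses of 1.23 ± 0.52 log2 (95% interval 0.15 to 2.30, limma adjusted p = 1).

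For the other called genes the intervals of the difference of responses give what these arrays could show. They were -0.44 to 0.38 log2 for CYP71B23, -0.54 to 0.55 for CYP71B34, -0.44 to 0.71 for CYP71B26, -0.50 to 0.65 for CYP84A4, -0.84 to 0.28 for CYP71B28 and -1.09 to 0.23 for CYP71B29. All 6 include 0, and for the first 5 genes a 2-fold difference lies outside the interval.

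Other genes of the pathways in which P450 enzymes work were listed by locus: reductases and cytochrome b5 as electron donors, P450 genes with other symbols, and genes of glucosinolate and camalexin, phenylpropanoid, suberin, sterol and brassinosteroid, triterpene, gibberellin and jasmonate synthesis. Of 105 genes on these 9 lists only 5 were measured, and no electron donor was among them. In wild type 0 of the 5 rose and 2 fell, beside 7.2% higher and 10.6% lower among all probe sets, and in HRE1-RNAi 1 rose and 1 fell, beside 7.51% and 10.7%. With 5 genes these counts cannot be read against the background.

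AT5G47980, an acyltransferase of the thalianol triterpene cluster, which also holds P450 genes, changed by -2.81 ± 0.29 log2 in wild type and -2.36 ± 0.29 in HRE1-RNAi (limma adjusted p = 5.17e-07 and adjusted p = 4.51e-06). HCT, whose shikimate ester product is hydroxylated by a P450 in the lignin pathway, changed by -0.38 ± 0.13 in wild type, where it passed (limma adjusted p = 0.0424), and -0.35 ± 0.13 in HRE1-RNAi, where it did not (limma adjusted p = 0.0617). BCAT4, an aminotransferase at the entry of methionine into glucosinolate synthesis, changed by 0.11 ± 0.27 in wild type (limma adjusted p = 0.865) and 0.81 ± 0.27 in HRE1-RNAi (limma adjusted p = 0.0446), where the groups overlapped. UGT74B1, a glucosyltransferase of glucosinolate synthesis, and PYK10, a beta-glucosidase of roots, were not called in either line, with changes from -0.28 to 0.18. None of the 5 was called between the lines or for the difference of responses, so the unequal calls of HCT and BCAT4 do not show a difference between the lines.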

How the data were processed

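Per the labels, biotin-labelled cRNA from root total RNA was hybridised to 16 one-colour Affymetrix arrays. The deposited values are an intensity per probe set and array on a linear scale, made with MAS5 per the submitters' processing notes, with no version given. Detection calls were not used here. The table held 22746 probe sets besides 64 controls, which stayed out of the fit. Of the 22746, 13513 have 1 gene in the supplied probe annotation, 503 have several and 8730 have no gene. Symbols were updated through gene IDs to the RefSeq annotation of TAIR10.1, in which all 24 P450 genes matched, and which served only for names and neighbours.

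Values were transformed to log2(intensity + 16), and limma 3.58.1 in R 4.3.3 estimated the 4 group means from the 16 arrays together (eBayes with trend and robust, 12 residual degrees of freedom before moderation), with 5 contrasts. P-values were adjusted within each contrast over all 22746 probe sets. The fit was tested on simulated data. The P450 genes, the pathway and marker lists, the tests and the alternatives were chosen with earlier results of these data known.

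All 24 genes are accounted for, and array values are given for each gene called in any contrast; other genes are given by means or ranges, with arrays added for CYP71B37 and CYP71B38, chosen after their values were seen. From pathway lists up to 4 called genes each are named. The alternatives changed the pseudocount (1 or 64), the scaling (quantile normalization or median centring) and the model: leaving out the dimmest 40%, the replicate number as a block, only the groups compared, plain moderation, stricter thresholds, and leaving out arrays. The planned choice among several probe sets per gene could not be run, since no P450 gene had several.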

Additional observations from a re-analysis of the deposited data

Results flagged for a closer look

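Dixon's 95% limit on the gap over the range was applied to each of the 96 combinations of gene and group. In 10 of them, 1 of the 4 arrays lay far from the other 3. Chance gives about 1 in 20 for normally distributed values, but most genes flagged here are dim, where this need not hold. The only bright gene among them was CYP71B23, at 639.6 on array 4 of HRE1-RNAi normoxia beside 426.4 to 446 on the others. Lower than their group were CYP71B27 on array 3 of HRE1-RNAi hypoxia, at 4.9 beside 31.8 to 40, and CYP71B24 on array 4 of wild type normoxia, at 2.1 beside 16.1 to 18.4. On array 3 of HRE1-RNAi hypoxia, CYP71B21 was at 28 beside 1.2 to 1.7, and CYP79A2 at 27.3 beside 1.7 to 2.4. On array 3 of HRE1-RNAi normoxia, CYP71B22 was at 10.5 beside 3 to 3.5, and CYP71B36 at 28.9 beside 4.2 to 6.9. CYP71B5 was at 14.7 beside 1.1 to 2.3 on array 2 of wild type normoxia and at 26.3 beside 0.9 to 2.2 on array 1 of HRE1-RNAi hypoxia. CYP71B31 was at 51.7 beside 1.8 to 2.7 on array 1 of HRE1-RNAi normoxia.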

How the results depend on the processing

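Of the 8 P450 genes called in each line, 16 calls in all, none changed sign under any alternative run, and 8 were lost under none: CYP71B6, CYP71B28, CYP71B29 and CYP718 in both lines. With at least a 2-fold change, 4 genes were called in each line, 2 of them lower in each. The 5 falls in HRE1-RNAi became 3 with quantile normalization, with centring on array medians, at an adjusted p below 0.01 and without both HRE1-RNAi arrays numbered 4. Leaving out single arrays gave 7 to 8 calls in wild type (3 higher, 4 to 5 lower), 6 to 8 in HRE1-RNAi (3 higher, 3 to 5 lower), and 0 in each comparison of the lines. Only 3 falls were left in HRE1-RNAi without array 1 or 2 of HRE1-RNAi normoxia. Alternatives were also run for 12 changes that were not called, of CYP71B37, CYP51G2, CYP718, CYP71B6 and CYP71B38. Signs turned in 4 cases: CYP71B37 in HRE1-RNAi to -0.0194 without both arrays 4 and, without single arrays, to values between -0.0785 and 0.135, below 0 without array 1 of HRE1-RNAi normoxia or array 4 of HRE1-RNAi hypoxia, and CYP71B6 between the lines in normoxia to values between -0.0642 and 0.0278, above 0 without array 1 of wild type normoxia. The causes were not tested. Deviations of same-numbered arrays correlated at 0.013 to 0.142 in wild type, 0.023 to 0.418 in HRE1-RNAi, -0.044 to 0.1 in normoxia and -0.088 to 0.081 in hypoxia, and 7, 4, 3 and 1 of 8 arrays correlated best with their own number. No comparison had every correlation above 0.1, but that bound does not settle whether arrays were paired. The 7 of 8 in wild type is a hint of pairing from the data, not the design. With the replicate number as a fixed block, 8 genes were called in wild type and 7 in HRE1-RNAi, where CYP84A4 had a limma adjusted p of 0.0529, and with a random block 8 in each. Of the 16 genes not called, 14 had means below 50 in every group. Whether dim signal kept them from being called was not tested.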

Other observations

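Of the probe sets left out because they are paired with several genes, 1 is paired with 2 genes that both have P450 symbols. It read 59.7, 19.4, 81.7 and 65 in wild type normoxia and 6.8, 16.9, 39.3 and 6.3 in wild type hypoxia, and 48.5, 2.4, 58.8 and 45.2 in HRE1-RNAi normoxia and 7, 7.9, 4.7 and 3 in HRE1-RNAi hypoxia. The groups overlapped in both lines through array 2 of normoxia. Its change was -1.13 ± 0.42 log2 in wild type and -1.16 ± 0.42 in HRE1-RNAi, neither called (limma adjusted p = 0.0699 and adjusted p = 0.06). The other one, paired with 1 P450 gene and another gene, changed by -0.02 ± 0.37 and 0.29 ± 0.37 log2 (limma adjusted p = 0.984 and adjusted p = 0.686).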
